A study of Bos taurus with 15 samples.

Results

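Alpha-lactalbumin (LALBA, listed as ENSBTAG00000005859) and beta-lactoglobulin (PAEP, listed as ENSBTAG00000014678) are the major whey proteins of bovine milk. Both were chosen by identifier, and they are 2 of the 24616 Ensembl identifiers in the deposited table of normalized counts. The table does not pair identifiers with names, so the symbols are those given with the choice of genes. Mammary tissue came from 4 non-pregnant Holstein cows in their second lactation, by needle biopsy under local bupivacaine. After the 0 h biopsy each cow was given dexamethasone (DEX, 40 mg, intramuscular), which is a synthetic glucocorticoid, and was biopsied again 12, 24 and 72 h post-DEX. All cows received DEX and prophylactic ampicillin around the biopsies, and no untreated cow was sampled in parallel, so the 0 h libraries are the only baseline. Each time point came from a different gland (QTR) of the udder, the same one in every cow. The labels name the left rear gland for 0 h, the left front for 12 h, a left right gland for 24 h and the right rear for 72 h. Time post-DEX and gland therefore cannot be told apart. Cows 2, 3 and 4 had a library at each of the 4 time points, and cow 1 had 3 libraries, at 0, 12 and 24 h, which gives 15 in all. According to the study a cow became ill after DEX and was withdrawn before the last biopsy. The labels do not say which, and cow 1 is the only cow without a library at that time. Tests used the 12 libraries of cows 2 to 4 unless stated otherwise.

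Whey proteins are made and secreted by the alveolar epithelial cells of the lactating gland. LALBA is the regulatory subunit of lactose synthase. It binds beta-1,4-galactosyltransferase in the Golgi and makes that enzyme accept glucose, so that lactose, the main osmotic solute of milk, is formed. PAEP is a lipocalin that binds small hydrophobic molecules and has no known part in lactose synthesis. Prolactin, acting through STAT5, and glucocorticoids both take part in the transcription of milk protein genes. In tissue RNA, fewer secretory cells and less RNA per cell cannot be told apart.

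Both genes were among the most abundant of the gland. By mean normalized count in cows 2 to 4, LALBA ranked 5 and PAEP ranked 9 among all genes. Reads per library numbered between 1804120, in cow 4 at 0 h, and 6228132, in cow 2 at 24 h, with a median of 4605321. LALBA was counted with between 57822 and 278254 reads per library and PAEP with between 21447 and 74958. At this depth counting error was small beside the differences between cows. The widest counting interval of a change within a cow was ± 0.025 on the log2 scale. In QuantSeq libraries a read comes from the end of a transcript, so read numbers of the 2 genes were compared without a correction for length.

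LALBA was lower in every cow at 12 and 24 h post-DEX than at 0 h. At 0 h it stood at 71146 normalized counts in cow 1, 45224 in cow 2, 34984 in cow 3 and 53965 in cow 4. At 12 h the values were 23279.7, 24644, 15743 and 22735 in the same order of cows. No cow at 12 h reached the lowest value at 0 h. How many of all genes separate in this way was not counted, here or for the statements on overlap below. At 24 h LALBA had 13960.3 normalized counts in cow 1, 27368 in cow 2, 12327 in cow 3 and 16245 in cow 4. All 4 values at 24 h also lay below those at 0 h, with cow 2 the highest of the 4. At 72 h cows 2, 3 and 4 had 36269.6, 38601 and 33080.1 normalized counts, all above the highest value at 12 or 24 h and overlapping with those at 0 h.

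**Figure D1:**
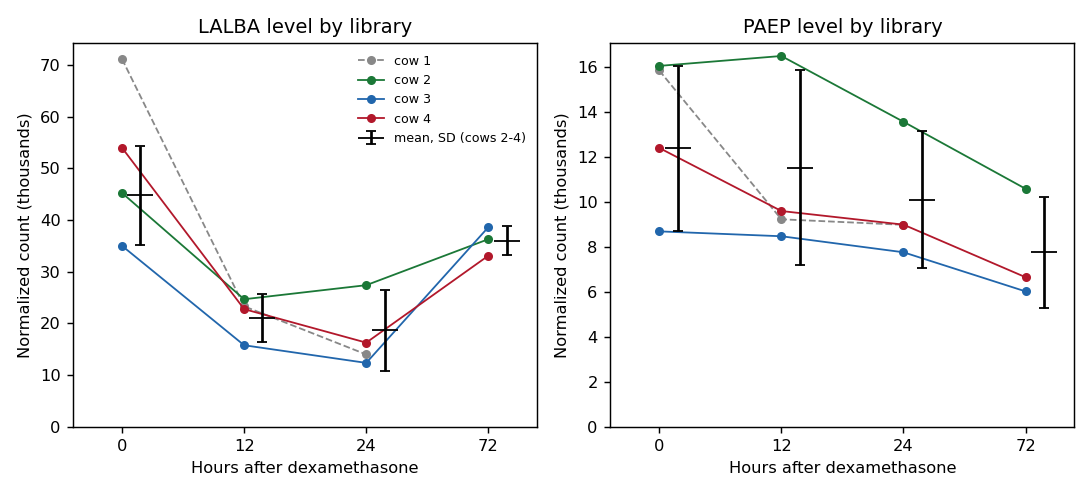
Normalized counts divided by 1000 (vertical axis, from 0) of LALBA and PAEP at 0, 12, 24 and 72 h post-DEX (horizontal axis, time points evenly spaced). Lines join the libraries of one cow, with cow 1 dashed, and bars give the mean and SD of cows 2 to 4. The mean LALBA of cows 2 to 4 dips from 44724 at 0 h to 21041 and 18647 at 12 and 24 h, while the mean PAEP steps down to 7757 at 72 h.

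The mean LALBA of cows 2 to 4 at 0 h was 44724 ± 9500.2 normalized counts (SD, n = 3). It was 21041 ± 4686 at 12 h and 18647 ± 7803 at 24 h, against 35984 ± 2772 at 72 h. The time points therefore ranked 0, 72, 12 and 24 h from high to low. The neighbours 0 and 72 h overlapped, as did 12 and 24 h, and only the step between 72 and 12 h was free of overlap. When time labels were permuted within cow, the exact permutation test of a time effect on LALBA gave p = 0.01215 in cows 2 to 4 over 4 time points. In cows 1 to 4 over 0, 12 and 24 h the exact permutation test gave p = 0.009259. The smallest values these designs allow are 0.00174 and 0.00463, and 6 tests of this kind were run. Adjusted together by the Benjamini-Hochberg method, their exact permutation p lay between 0.01823 and 0.02315. Without cow 2, 3 or 4 the exact permutation p for LALBA in the other pair of cows was between 0.08333 and 0.1667.

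The log2 fold change of LALBA was -1.09 at 12 h (standard error 0.42, 95% confidence interval -1.98 to -0.20, adjusted p = 0.198 in limma), which is 0.469 times the 0 h level. At 24 h it was -1.32 (95% confidence interval -2.21 to -0.43, adjusted p = 0.133 in limma), or 0.4 times the 0 h level. Neither passed the threshold of 0.05 in the limma fit over 13525 genes, in which 1.61% of genes were called lower at 12 h and 0.776% at 24 h. The call differed between fits. The correlation within cow that this fit estimated over all genes was 0.0179, so the pairing by cow had little weight in it. A limma fit that held cow as a fixed term gave LALBA an adjusted p of 0.0694 at 12 h and 0.0352 at 24 h, the latter under the threshold. At 24 h LALBA also passed with all 15 libraries (adjusted p = 0.02545 in limma) and when libraries were scaled by totals without the 20 most abundant genes (adjusted p = 0.0325 in limma). LALBA's own residual SD was 0.375 on the log2 scale, and the fit drew it towards a prior SD of 0.621 taken from the trend over all genes. When only the 2922 genes averaging 10 or more normalized counts were fitted, which also lowers the number of tests, that prior SD was 0.292 and the adjusted p in limma was 0.00997 at 12 h and 0.0043 at 24 h. That fit called 480 of the 2922 genes at 12 h and 407 at 24 h, in either direction. With a constant prior in place of the trend and all 13525 genes, the standard error was 0.295 and the adjusted p in limma was 0.0758 at 12 h and 0.0588 at 24 h, neither under the threshold. Limma-voom on the recovered reads, the type of fit in the study's methods, gave adjusted p = 0.00602 at 12 h and 0.00296 at 24 h. It called 570 and 361 of 6698 genes. Over the 18 alternatives LALBA was lower in every one at both times, and its adjusted p ranged from 1.051e-13 in edgeR to 0.566 in limma without cow 4 at 12 h, and from 1.356e-18 to 0.597 at 24 h. It was under 0.05 in 4 of 18 at 12 h and in 7 of 18 at 24 h. Both edgeR and DESeq2 held cow as a fixed term. Of 13525 genes, edgeR called 907 at 12 h and 630 at 24 h, and DESeq2 called 592 and 418. At 24 h limma called 421 with cow as a fixed term and 340 with totals without the 20 most abundant genes. With all 15 libraries it called 524 of 13904 genes at 24 h. These counts are in either direction.

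The size of the LALBA change differed between cows. At 12 h LALBA stood at 32.7% of its 0 h level in cow 1, 54.5% in cow 2, 45% in cow 3 and 42.1% in cow 4. At 24 h it stood at 19.6%, 60.5%, 35.2% and 30.1% in the same order. By normalized count cow 1 thus had the deepest change at both times and cow 2 the shallowest. From 12 to 24 h LALBA moved in different directions, to 111.1% of its 12 h level in cow 2 and to 60%, 78.3% and 71.5% in cows 1, 3 and 4. The log2 fold change between these time points was -0.23 (95% confidence interval -1.12 to 0.66, adjusted p = 0.897 in limma), in a comparison where 0.384% of genes were called lower at 24 h. It was -0.42 without cow 2, -0.10 without cow 4 and -0.48 after quantile normalization.

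LALBA at 72 h was above its 24 h level in 3 of 3 cows. It stood at 132.5%, 313.1% and 203.6% of the 24 h level in cows 2, 3 and 4. The log2 fold change from 24 to 72 h was 1.03 (95% confidence interval 0.14 to 1.91, adjusted p = 0.244 in limma), where 1.18% of genes were called higher, and from 12 to 72 h it was 0.80 (95% confidence interval -0.09 to 1.69, adjusted p = 0.438 in limma), where 1.42% were called higher. Among the 18 alternatives this adjusted p spanned 1.483e-11 in edgeR to 0.612 in limma without cow 3 for 24 to 72 h, under 0.05 in 5 of 18, and from 9.596e-08 to 0.785 for 12 to 72 h, under 0.05 in 3 of 18. In edgeR 928 of 13525 genes were called from 12 to 72 h and 988 from 24 to 72 h, in either direction. The log2 fold change of LALBA from 12 to 72 h was 0.48 after quantile normalization and 0.55 without cow 3. Against 0 h, LALBA at 72 h stood at 80.2%, 110.3% and 61.3% in cows 2, 3 and 4. This difference had a log2 fold change of -0.29 (95% confidence interval -1.18 to 0.59, adjusted p = 0.905 in limma), an interval that reaches from 0.441 to 1.51 times the 0 h level. It was -0.51 without cow 3 and -0.09 without cow 4.

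**Figure D2:**
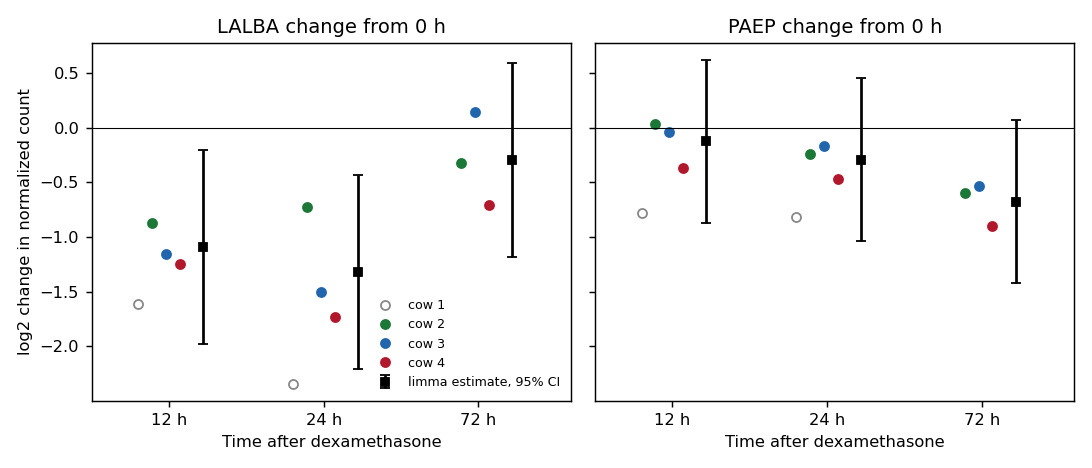
Change from 0 h in the normalized count, on the log2 scale (vertical axis), of LALBA and PAEP at 12, 24 and 72 h (horizontal axis). Circles are single cows, open for cow 1, and squares with bars are the limma estimate and its 95% confidence interval from cows 2 to 4. All circles of LALBA lie below 0 at 12 and 24 h, while those of PAEP at these times lie between -0.82 and 0.04 and reach -0.90 at 72 h.

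PAEP differed less from 0 h at 12 and 24 h than LALBA did, and with the deposited normalization it was lowest at 72 h. After quantile normalization its log2 fold change was -0.17 at 24 h and -0.09 at 72 h, and by share cow 4 was lower at 24 h. At 0 h it stood at 15865 normalized counts in cow 1, 16069.6 in cow 2, 8697 in cow 3 and 12415 in cow 4. At 12 h the values were 9236, 16511, 8480.3 and 9604 in the same order of cows. PAEP in cows 2 and 3 was thus close to its 0 h level at 12 h, and in cows 1 and 4 it was lower. At 24 h PAEP stood at 8990.0 in cow 1, 13581 in cow 2, 7766 in cow 3 and 8997 in cow 4. At 72 h cows 2, 3 and 4 had 10594, 6022 and 6654 normalized counts, the lowest value of each cow. Cow 2 had the highest PAEP of cows 2 to 4 at every time point and cow 3 the lowest.

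The mean PAEP of cows 2 to 4 at 0 h was 12394 ± 3686 normalized counts (SD, n = 3). It was 11532 ± 4349 at 12 h and 10115 ± 3064 at 24 h, against 7757 ± 2477 at 72 h. All neighbours in this order overlapped. Within cow, the exact permutation test of a time effect on PAEP gave p = 0.005208 in cows 2 to 4, and p = 0.02604 with library totals only. In cows 1 to 4 over 0, 12 and 24 h it gave an exact permutation p = 0.02315, and p = 0.2639 in the exact permutation test when libraries were scaled by their totals only. Without the pairing by cow the permutation p was 0.3434 in cows 2 to 4. Without cow 3 or without cow 4 the exact permutation p over 4 time points was 0.08333. The permutation test was not run after quantile normalization, nor on genes other than LALBA and PAEP.

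The log2 fold change of PAEP was -0.12 at 12 h (95% confidence interval -0.87 to 0.62, adjusted p = 0.955 in limma) and -0.29 at 24 h (95% confidence interval -1.04 to 0.46, adjusted p = 0.79 in limma). These intervals cover 0.547 to 1.54 and 0.487 to 1.37 times the 0 h level. The LALBA estimate of -1.09 at 12 h lies outside the first, but its own interval, -1.98 to -0.20, overlaps it. Without cow 4 the 12 h value of PAEP was 0.0013, with a 95% confidence interval of -1.09 to 1.10. That interval holds the LALBA value of the same fit, -1.01. At 72 h PAEP stood at 65.9% of its 0 h level in cow 2, 69.2% in cow 3 and 53.6% in cow 4, and its log2 fold change was -0.68 (95% confidence interval -1.42 to 0.07, adjusted p = 0.778 in limma). In that comparison 0% of genes were called lower in limma, 931 genes had an unadjusted p under 0.05 in either direction, and edgeR and DESeq2 called 55 and 27 genes. PAEP was among those called by both, which held cow as a fixed term. Its adjusted p was 0.0012 in edgeR and 4.69e-05 in DESeq2, and over the other alternatives it was not under 0.05, the highest being 1 in limma without cow 4. In the limma fit with cow as a fixed term, the 95% confidence interval at 72 h against 0 h was -1.15 to -0.20. It lay below 0, but the adjusted p in that limma fit was 0.477. From 24 to 72 h PAEP was lower in 3 of 3 cows, with a log2 fold change of -0.39 (95% confidence interval -1.13 to 0.36, adjusted p = 0.694 in limma). That value was -0.11 with library totals, -0.20 with totals without the 20 most abundant genes and 0.08 after quantile normalization, and by share PAEP was lower in 2 of 3 cows. Of the 2 whey protein genes, 0 passed the threshold in any of the 6 comparisons of time points in the limma fit. Over all 13525 genes the share called in either direction was 3.88% at 12 h, 2.31% at 24 h and 0% at 72 h against 0 h, 0.702% between 12 and 24 h, 3.62% between 12 and 72 h and 3.56% between 24 and 72 h. In limma-voom 1 of the 2 genes, LALBA, was called at 12 and 24 h against 0 h, where 570 and 361 of 6698 genes were called, and at 72 h against 12 and 24 h, where 678 and 731 were.

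The size of the PAEP difference at 72 h depended on the scaling. With library totals only, the median log2 fold change of the 2922 better measured genes between 0 and 72 h was 0.26, against 0.022 with the deposited normalization. PAEP was then -0.43, and LALBA at 72 h was -0.05 against -0.29 with the deposited values. Relative to the median gene PAEP was -0.69 and LALBA -0.31, values that a change of library totals leaves nearly fixed by construction. Quantile normalization, which is no such scaling, gave PAEP -0.09 and LALBA -0.27 at 72 h, so that LALBA was then the lower of the pair.

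The ratio of LALBA to PAEP reads within a library is not changed by a scaling factor of that library. At 0 h the ratio was 4.48 in cow 1, 2.81 in cow 2, 4.02 in cow 3 and 4.35 in cow 4. At 12 h it was 2.52, 1.49, 1.86 and 2.37 in the same order, and at 24 h it was 1.55, 2.02, 1.59 and 1.81. No ratio at 12 or 24 h reached the lowest ratio at 0 h, so LALBA was lower relative to PAEP in 4 of 4 cows at both times. At 72 h cows 2, 3 and 4 had ratios of 3.42, 6.41 and 4.97, above the 0 h ratio of the same cow in 3 of 3 cows and overlapping with the 0 h range.

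**Figure D3:**
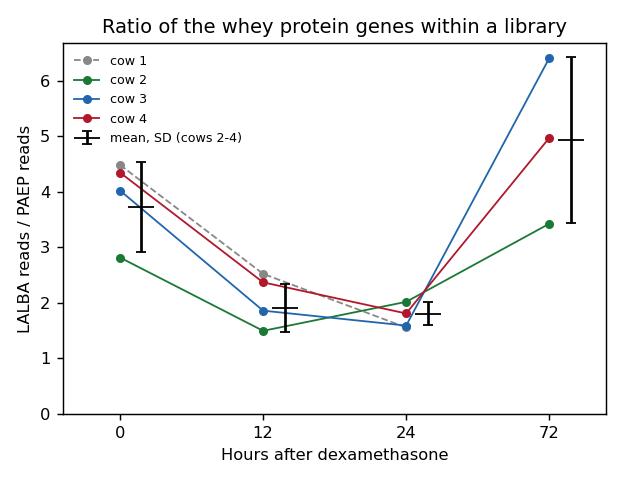
LALBA reads divided by PAEP reads in the same library (vertical axis, from 0) at 0, 12, 24 and 72 h post-DEX (horizontal axis, time points evenly spaced). Lines join the libraries of one cow, with cow 1 dashed, and bars give the mean and SD of cows 2 to 4. The mean of cows 2 to 4 was 3.73 at 0 h and 4.93 at 72 h, and that at 12 and 24 h was 1.91 and 1.8.

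The mean ratio of cows 2 to 4 at 0 h was 3.73 ± 0.808 (SD, n = 3). It was 1.91 ± 0.439 at 12 h and 1.8 ± 0.214 at 24 h, against 4.93 ± 1.49 at 72 h. The exact permutation test within cow gave p = 0.01042 for an effect of time on the log2 ratio in cows 2 to 4, and for cows 1 to 4 over 0, 12 and 24 h the exact permutation p = 0.01852. Leaving out a cow gave an exact permutation p from 0.0417 to 0.125 in cows 2 to 4. In cows 1 to 4 the exact permutation p was then from 0.0278 to 0.1111. In either set it was under 0.05 only without cow 2, and fewer cows also raise the smallest possible p. The mean change in the log2 ratio was -0.97 ± 0.13 (SD, n = 3 cows) at 12 h, -1.03 ± 0.48 at 24 h and 0.38 ± 0.25 at 72 h, the last being 0.24 without cow 3. A sign-flip permutation test over 3 cows cannot go below 0.25, which is the exact value each of these gave. With cow 1 the means were -0.93 at 12 h and -1.16 at 24 h, lower in 4 of 4 cows, with an exact permutation p = 0.125, the smallest possible. The 12 h change was of like size in all 4 cows, from -0.83 in cow 1 to -1.12 in cow 3. At 24 h it spread from -0.48 in cow 2 to -1.53 in cow 1.

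As a share of the library, LALBA took 5.67%, 4.47%, 3.35% and 5.17% of reads in cows 1 to 4 at 0 h. It took 2.18%, 2.47%, 1.54% and 2.17% at 12 h, and 1.73%, 2.4%, 1.29% and 1.5% at 24 h. At 72 h the share in cows 2, 3 and 4 was 3.77%, 4.39% and 4.23%. LALBA was the fourth to the sixth most abundant gene in 14 of the 15 libraries and ranked 9 in cow 4 at 24 h. PAEP took 1.26%, 1.59%, 0.833% and 1.19% of reads in cows 1 to 4 at 0 h and 0.866%, 1.66%, 0.831% and 0.915% at 12 h. Its share at 24 h was 1.11%, 1.19%, 0.813% and 0.828%, and at 72 h it was 1.1%, 0.685% and 0.851% in cows 2, 3 and 4. PAEP ranked between 7 and 13 over the libraries. The widest exact 95% binomial interval of these shares spans ± 1.33% of the share, which is a limit on counting error alone, as PCR copies of a molecule were not told apart.

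Shares and normalized counts gave different sizes of change in some cows. In cow 1 LALBA at 24 h was 30.5% of its 0 h level by share and 19.6% by normalized count, so that by share the deepest change at 24 h was that of cow 4, at 28.9%. PAEP in the same libraries was 88% by share and 56.7% by normalized count. In cow 4, PAEP from 24 to 72 h was 102.8% by share and 74% by normalized count, so that its direction depended on the scale. The same was true of LALBA in cow 2 from 12 to 24 h, which was 96.9% by share and 111.1% by normalized count, and of PAEP in cow 1 over that interval, which was 128.4% by share and 97.3% by normalized count. Together the 2 genes took 5.53% ± 1.18 of reads in cows 2 to 4 at 0 h (SD, n = 3). They took 3.19% ± 0.883 at 12 h and 2.67% ± 0.799 at 24 h, against 5.01% ± 0.119 at 72 h.

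LALBA had lower log2 fold changes at 12 and 24 h than the other most abundant genes, and PAEP had values among theirs. The 20 most abundant genes of cows 2 to 4 hold LALBA, PAEP and 18 others. At 12 h the 18 others had log2 fold changes between -0.29 and 0.24 with a median of -0.06, and at 24 h between -0.32 and 0.41 with a median of 0.17. The values of LALBA, -1.09 and -1.32, lay below both ranges, and those of PAEP, -0.12 and -0.29, lay within them. Over all 13525 genes the median was 0.00054 at 12 h and 0 at 24 h. None of the 18 others was called in limma at either time. At 72 h the 18 others were all below their 0 h level with the deposited normalization, with a median of -0.40 and a range of -0.76 to -0.11 that holds both whey protein genes, and with library totals only 13 of 18 were below it and after quantile normalization 11 of 18. These values are a description, since the genes share libraries and scaling.

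**Figure D4:**
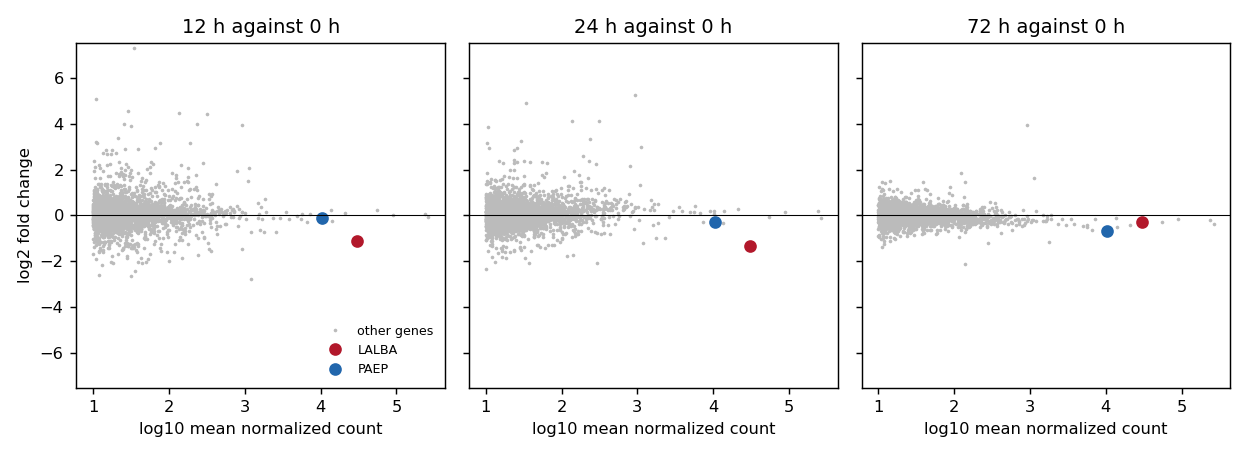
Log2 fold change against 0 h (vertical axis) and log10 of the mean normalized count in cows 2 to 4 (horizontal axis) for the 2922 genes averaging 10 or more, in limma, at 12, 24 and 72 h. Each grey point is a gene, LALBA is red and PAEP is blue. At 12 and 24 h LALBA, at -1.09 and -1.32, lies below the genes of like abundance, and at 72 h it lies among them.

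Among the 37 genes averaging 1000 or more normalized counts, LALBA had the lowest log2 fold change at 24 h and the next to lowest at 12 h. Only ENSBTAG00000020527, named after its values were seen, had a lower value at 12 h, -2.77 on the log2 scale (adjusted p = 2.356e-05 in limma). Its mean was 1698 ± 309 normalized counts before DEX (SD, n = 3), then 249 ± 52.7 at 12 h and 780.4 ± 332 at 24 h. From 24 to 72 h the log2 fold change of LALBA was above that of 35 of the 36 others.

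Over the 12 libraries of cows 2 to 4, LALBA and PAEP correlated weakly (Pearson's r = 0.258 on log2 values), and libraries of one cow and one time point are shared by all genes in such a value. Of 2921 other genes averaging 10 or more normalized counts, the one most like LALBA was ENSBTAG00000002669, with r = 0.921. Its mean before DEX was 24.2 ± 4.6 normalized counts (SD, n = 3), then 12.8 ± 1.4 at 12 h and 11.5 ± 1.79 at 24 h, against 23.2 ± 2.96 at 72 h, a far lower level than LALBA. That its time points rank like those of LALBA follows from the choice by highest correlation. The median r with LALBA over the 2921 genes was -0.066. The gene most like PAEP was ENSBTAG00000047035, with r = 0.871. Its mean before DEX was 23.9 ± 3.32 normalized counts (SD, n = 3), then 23.6 ± 3.18 at 12 h and 24.4 ± 2.72 at 24 h, against 20.3 ± 1.4 at 72 h. PAEP itself ranked 815 in likeness to LALBA.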

How the data were processed

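The authors trimmed the reads, aligned them with STAR (version 2.6.0c, per the submitters' processing notes) to the UMD3.1 genome with Ensembl annotation and counted them per gene. The deposited normalized counts are a signal, each count divided by a scaled library size. Reads were recovered by dividing by the smallest value above 0 of each library, and 100% came out whole within 0.02. The factors differ from those of edgeR's TMM by at most 8.03e-09%. In the RefSeq annotation of ARS-UCD2.0, 0 of 24616 identifiers could be matched, so lists by symbol, cell type markers among them, were not analysed here.

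Time points were compared in limma (version 3.58.1, R 4.3.3, prior variance with a trend). The fit took 13525 genes with a read, as log2(normalized count + 0.5), in 12 libraries from cows 2 to 4, cow being a block through duplicateCorrelation and Benjamini-Hochberg adjustment. Fold changes are on this scale. Cow 1 was left out of that fit because it has no 72 h library. Libraries of one cow pair by animal. Their deviations from time point means correlated in 18 of 18 pairs (lowest 0.209, over 2922 genes), while duplicateCorrelation gave 0.0179 over all genes fitted. Time effects and the ratio were tested by two-sided exact permutation within cow (scipy 1.17.1). There were 18 alternatives, among them edgeR 4.0.16, DESeq2 1.42.0 and limma-voom on the recovered reads. The edgeR and DESeq2 fits held cow as a fixed term, unlike the main limma fit and limma-voom. Genes to be named were the 2 members, the gene most correlated with each, and the 20 most abundant as a group. Members and lists were chosen with earlier results of these data known.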

Additional observations from a re-analysis of the deposited data

Results flagged for a closer look

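In the 4 libraries at 12 h, PAEP of cow 2 stood far above the other cows, at 16511 normalized counts, a gap to the next cow of 0.86 of the whole range. The same held for its share of the library, 1.66% (gap over range 0.898). The ratio of LALBA to PAEP in that library was 1.49, the lowest of the 4, with a gap of 0.354 of the range. Of 15 groups of 4 values examined, 2 exceeded Dixon's critical value of 0.829, where chance gives about 0.75, and these 2 describe the same reads. No explanation was tested.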

How the results depend on the processing

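In addition to the limma fit of cows 2 to 4, 18 alternatives were run for each fold change. LALBA passed the threshold at 12 h when only genes averaging 10 or more were fitted (-1.09), with limma-voom (-1.13), edgeR (-1.10) and DESeq2 (-1.14). At 24 h it passed with these (-1.32, -1.37, -1.30 and -1.33), with cow as a fixed term, that is the replicate block as a fixed term (-1.32), with all 15 libraries (-1.58) and with totals without the 20 most abundant genes (-1.48). From 12 to 72 h it passed with limma-voom (0.81), edgeR (0.82) and DESeq2 (0.84), and from 24 to 72 h with genes averaging 10 or more (1.03), library totals (1.31), limma-voom (1.05), edgeR (1.03) and DESeq2 (1.03). PAEP passed at 72 h against 0 h with edgeR (-0.68) and DESeq2 (-0.69), against 12 h with the same tools (-0.56 and -0.54) and against 24 h with DESeq2 (-0.38). From 12 to 72 h PAEP was -0.55 in the limma fit, -0.32 with library totals only and -0.018 after quantile normalization. Its direction reversed at 12 h without cow 4 (0.0013, against -0.20 without cow 2) and from 24 to 72 h after quantile normalization (0.076). Dropping the block from limma changed no call of either gene. The cause of these differences was not tested.

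In the exact permutation tests of time, leaving out a cow gave a p from 0.08333 to 0.1667 for LALBA in cows 2 to 4 and from 0.0278 to 0.05556 in cows 1 to 4, from 0.0417 to 0.08333 and from 0.0278 to 0.1389 for PAEP, and from 0.0417 to 0.125 and from 0.0278 to 0.1111 for the ratio. With no replicate block the permutation p for PAEP was 0.3434 in cows 2 to 4 and 0.3533 in cows 1 to 4. With library totals only it was 0.2639 in cows 1 to 4 in the exact permutation test.

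The number of genes called was 525 at 12 h (168 without cow 3 to 907 in edgeR), 312 at 24 h (78 without cow 2 to 630), 0 at 72 h (0 to 55), 95 from 12 to 24 h (2 without cow 4 to 538), 490 from 12 to 72 h (180 to 928) and 482 from 24 to 72 h (103 to 988). Both genes had at least 21447 reads in every library.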
